A study of Mus musculus with 6 samples.

Results

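Protocadherins are cell adhesion receptors of the cadherin superfamily, and 68 of the 45037 probe sets on the array carried a platform gene symbol that begins with Pcdh. Of these, 62 listed 1 symbol and named 35 genes, and the other 6 listed several Pcdha symbols, so that 49 of the 19324 symbols on the array were protocadherins. The 28 beta cluster probe sets named 22 genes, the 9 delta1 probe sets 4 genes, the 16 delta2 probe sets 5 genes and the 8 remaining non-clustered probe sets 3 genes (Pcdh12, Pcdh15 and Pcdh20). The gamma cluster was represented by 1 probe set, for Pcdhgc4, and its other genes were not analysed here. The samples were 6 Affymetrix mouse arrays of total RNA from cerebral cortex. Of these, 3 were labelled Egr1/Egr3 double knockout and 3 wild type. Egr1 and Egr3 are zinc finger transcription factors that neurons induce with activity. Strain, age, sex, kind of allele and treatment are not in the labels. Nor is it said whether each array had its own animal, and p-values here therefore measure array-to-array spread, which may be technical.

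Clustered protocadherins of the alpha, beta and gamma groups lie in tandem arrays of variable exons, each with its own promoter. A neuron switches on a small subset of them, and the proteins bind their own kind between cell surfaces, so that branches of the same neuron recognise and avoid each other. Alpha and gamma transcripts are spliced to exons that all members of the group share, whereas beta genes are encoded by a single exon. The non-clustered delta protocadherins are expressed in region- and layer-specific patterns and act in cell sorting, axon growth and synapse formation.

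The arrays labelled double knockout went with their label at Egr3 and not at Egr1. The brighter Egr3 probe set read 339, 370 and 507 signal units in these arrays, against 1189, 2670 and 924 in wild type (log2 difference -1.80, limma adjusted p = 0.0361), while Egr1 read 2116, 2647 and 2657 against 1247, 2054 and 1430 (log2 difference 0.67, limma adjusted p = 0.108). For this reason the group keeps its labelled name here. The median signal per array was 36.2 to 39.5 units, and having 3 arrays a group bounds the precision. Markers of excitatory cortical neurons were summed for the labelled tissue, with no other tissue to compare, so the sum cannot check the label. The summed signal of Slc17a7, Tbr1, Neurod6 and Camk2a was 4596 to 5887 in the arrays labelled double knockout and 4208 to 5298 in wild type. None of the 4 passed, and they did not move together. Neurod6 differed by -0.44 with no overlap (limma adjusted p = 0.154) and Slc17a7 by 0.62 (adjusted p = 0.252). Several features moved with the groups or with single arrays. The summed signal of 5 microglial markers was 1901 to 2363 in the arrays labelled double knockout and 2440 to 2861 in wild type. That of 5 astrocyte markers was 4891 to 5327 for double knockout and 5494 to 5849 for wild type, with members on both sides: Aqp4 fell (log2 difference -0.96, limma adjusted p = 0.0139), while Slc1a3 differed by 0.38 (adjusted p = 0.118). The sum of 5 general neuronal markers was 19667 to 21246 in the arrays labelled double knockout and 15712 to 19559 in wild type. None of the 5 passed, and members lay on both sides. Rbfox3 differed by 0.32 (limma adjusted p = 0.164) and Nefl by -0.27 (adjusted p = 0.374). For 4 oligodendrocyte markers the sum was 13752 to 15786 for double knockout and 11304 to 13569 for wild type. Of the 4 Mbp was the member whose groups did not overlap. The sum of 4 hippocampal markers was 915 to 1019 for double knockout and 1041 to 1305 for wild type. Of the 3 tested Zbtb20 fell (log2 difference -0.52, limma adjusted p = 0.0475). Wfs1, the brightest of the 3, differed by -0.16 (adjusted p = 0.557) and Grik4 by 0.07 (adjusted p = 0.867). Among 6 interneuron markers Vip rose (log2 difference 0.55, limma adjusted p = 0.0453) and 5 did not pass. The Gapdh ratio of 3' to 5' signal, a sign of RNA quality, was 0.881 to 0.9497 for double knockout and 0.806 to 0.873 for wild type. Choroid plexus markers summed to 4776 in double knockout replicate 1 and 10911 in wild type replicate 3, against 102 to 430 on the other arrays. Double knockout replicate 2 was the array with high Xist (3140, against at most 42.5 elsewhere). Its Eif2s3y, a Y-linked gene, read 0.63, against 383 to 609 elsewhere. By these genes that array was female and the others male, so sex was not balanced between the groups. It therefore shared no animal with the other double knockout arrays. Wild type replicate 1 had dim spiked controls, at 0.457 of the median array. The part of these features in the results below was not tested, and fits without these arrays are given beside the results they change. In bulk tissue, fewer cells of a type and less RNA per cell cannot be told apart.

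Signals under 1 were set to 1 and log2(signal + 16) was taken, so folds of dim probe sets are understated. A probe set was tested if its mean over all 6 arrays lay above the median probe set, at about 36.6 signal units. Of the protocadherin probe sets 39 passed this filter and 29 did not. All differences are given as double knockout minus wild type on this log2 scale. Limma across all 22518 tested probe sets, with a Benjamini-Hochberg adjusted p under 0.05 as the threshold, called 5 protocadherin probe sets. These 5 of 39 (12.8%) compare with 1.02% of all tested probe sets. Among them Pcdhb9 passed the filter only through its wild type arrays, as its double knockout mean of 31.4 was under the filter. Its place in this count therefore depended on the group where it was high. Pcdhb3 and Pcdh10 on a pair of probe sets rose, 3 probe sets in all, where 0.426% of all tested probe sets rose. Pcdhb9 and Pcdh20 fell, 2 probe sets, where 0.591% of all fell. The other 34 did not pass. Members can share a gene, so these are not independent counts: the 5 probe sets name 4 genes. An unadjusted p under 0.05 was reached by 8 of 39 members (20.5%) and by 16.6% of all tested probe sets, 4 higher and 4 lower against 8.26% and 8.33% of all. The groups did not overlap for 11 of 39 members (28.2%), 7 higher and 4 lower, against 22.3% of all tested probe sets, 11.5% higher and 10.7% lower. The median log2 difference was 0.09 over the 39 tested members and 0.0093 over all tested probe sets. It was 0.09 over all 68 members and 0.013 over all 45037 probe sets.

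**Figure D1:**
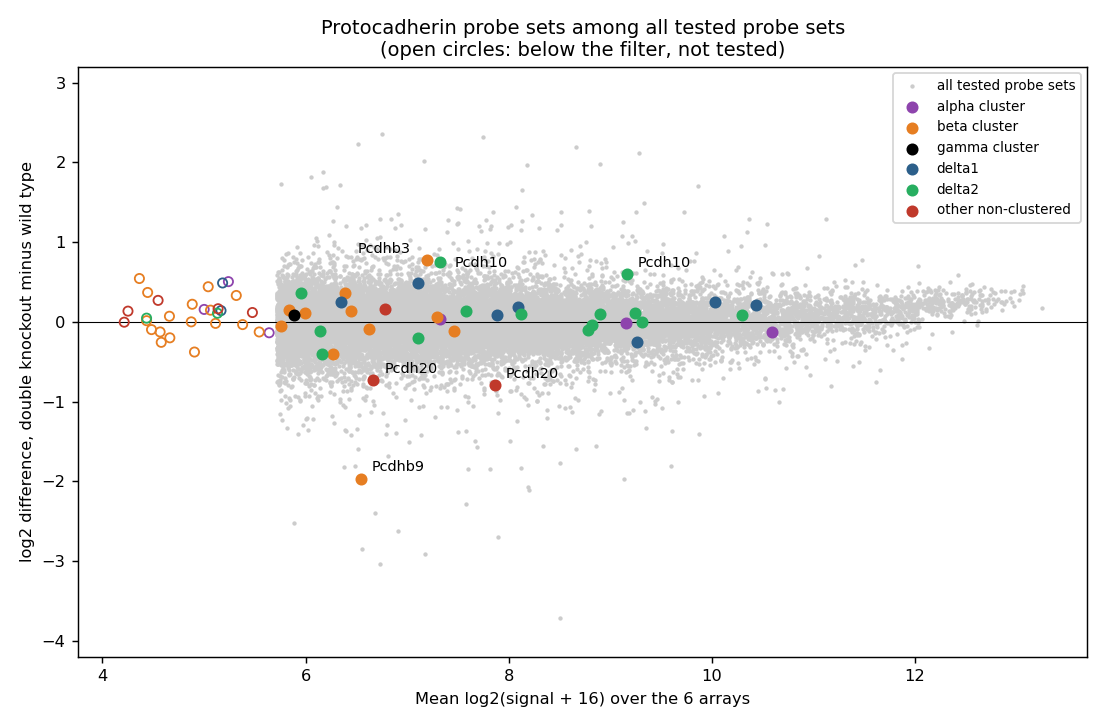
Log2 difference (double knockout minus wild type) against the mean log2(signal + 16) over the 6 arrays. Grey points are all 22518 tested probe sets, coloured points the protocadherin probe sets by class, and open circles the 29 below the filter. Pcdhb9 lies at -1.97, Pcdh20 at -0.79 and -0.73, and Pcdhb3 and Pcdh10 lie at 0.60 to 0.77, while the other tested members lie between -0.41 and 0.48.

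Pcdhb9 had the largest difference among the 39 tested members. The beta protocadherins are homophilic recognition proteins that lack the shared cytoplasmic domain of the alpha and gamma groups. Pcdhb9 read 36.6, 29.8 and 27.7 signal units in double knockout replicates 1, 2 and 3, against 157, 186 and 163 in wild type replicates 1, 2 and 3. Double knockout replicate 1 was close to its array's median of 36.2 and replicates 2 and 3 were below theirs of 37.9, while every wild type array was far above its median. The means were 31.4 ± 4.63 and 169 ± 15.5 (SD, n = 3 each), which is -1.97 on the log2 scale (SE 0.15, adjusted p = 0.000624 in limma), or 3.91-fold lower on the log2(signal + 16) scale. By p it ranked 4 of 22518 tested probe sets. The call held in all 16 alternatives in which the probe set was tested, with adjusted p between 0.00018 and 0.0425. Its size depends on the pseudocount, from -2.40 with a pseudocount of 1 to -1.29 with 64, as it does for any probe set with 1 dim group. The stricter filter leaves this probe set out.

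Pcdhb3, another member of the cluster, moved the other way. It read 173, 191 and 162 in the arrays labelled double knockout, against 97.1, 85.7 and 105 in wild type. The lowest array labelled double knockout was above the highest wild type array. The means were 175 ± 14.4 and 96.0 ± 9.73 (SD, n = 3 each), a difference of 0.77 on the log2 scale (SE 0.13, limma adjusted p = 0.0322). The direction was the same in all 16 alternatives in which it was tested, with log2 differences of 0.58 to 0.86, but the call held in 7 of them. When single arrays were omitted, it was lost in 5 of the 6 fits and held without wild type replicate 3 (adjusted p = 0.0428, with 0.0243 to 0.248 over all alternatives).

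The other beta genes gave no call. Of the 11 tested probe sets of the cluster, 1 rose, 1 fell and 9 did not pass, and their log2 differences besides Pcdhb9 and Pcdhb3 ran from -0.40 to 0.37. Pcdhb12 was the third member of the cluster with an unadjusted p under 0.05. It read 62.8, 48.1 and 43.1 against 73.3, 86.7 and 59.5 in wild type (log2 difference -0.40, SE 0.18, limma adjusted p = 0.294), and double knockout replicate 1 overlapped wild type replicate 3. Pcdhb20 read 159.8, 143 and 158 against 167, 180.2 and 154 (log2 difference -0.11, limma adjusted p = 0.696), and Pcdhb17 read 144, 135 and 154 against 128, 154 and 132 (log2 difference 0.06, adjusted p = 0.856). In each the groups overlapped. Pcdhb16 differed by 0.37 (adjusted p = 0.430), Pcdhb19 by 0.15 (0.691), Pcdhb7 by -0.09 (0.800) and Pcdhb15 by -0.05 (0.929). The pair of Pcdhb21 probe sets differed by 0.13 and 0.11 (limma adjusted p = 0.743 and 0.805).

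The remaining 17 beta probe sets were below the filter, with no signal above 38.2 on any array, and were not tested. Their log2 differences ran from -0.38 for Pcdhb5 to 0.54 for Pcdhb6. Pcdhb6 was the member of this dim set whose groups did not overlap, at 3.95, 9.94 and 13.6 in the arrays labelled double knockout, against 0.793, 1.08 and 1.09 in wild type. These signals are far under the array medians. Of all 28 beta probe sets 14 were higher and 14 lower by sign, with a median log2 difference of 0.0069. Beta genes are close in sequence, and a probe set can bind transcripts of neighbouring members, so each signal is uncertain as a measure of its named gene alone.

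**Figure D2:**
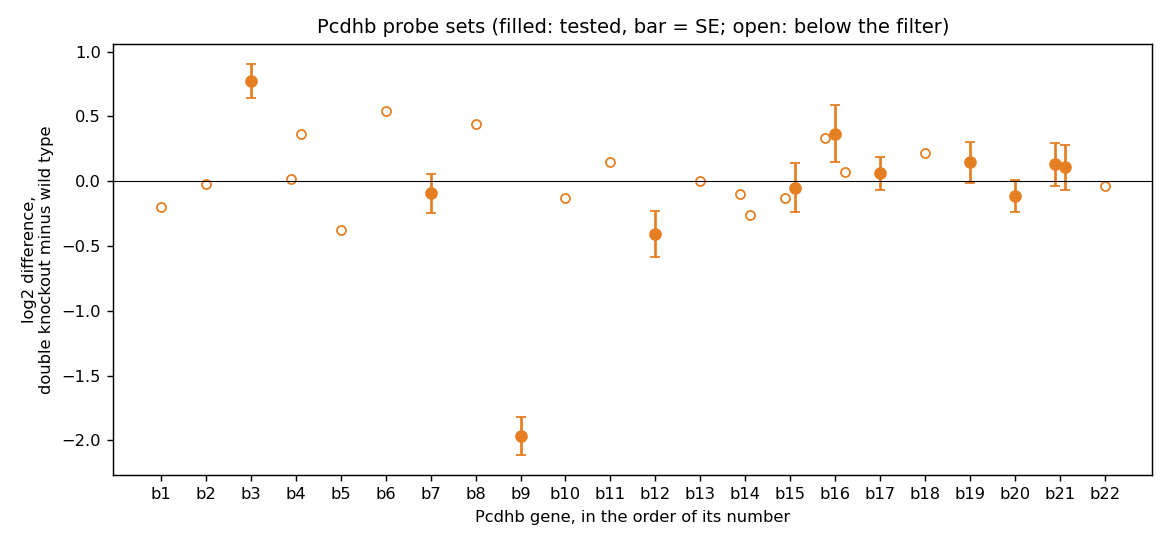
Log2 difference (double knockout minus wild type) of each Pcdhb probe set, with genes in the order of their numbers. Filled points with SE bars were tested and open points were below the filter. Pcdhb9 at -1.97 and Pcdhb3 at 0.77 stand away from the other 26, which lie between -0.40 and 0.54.

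No probe set of the alpha cluster passed. Its 3 bright probe sets each list 14 Pcdha symbols, among them Pcdhac1 and Pcdhac2. Which of these transcripts each probe set reads was not checked. The brightest read 1614, 1593 and 1208 in the arrays labelled double knockout, against 1366, 1595 and 1859.9 in wild type, with overlapping groups (log2 difference -0.13, SE 0.15, limma adjusted p = 0.714). The second brightest read 503, 604 and 557 against 557, 549.7 and 567 in wild type (log2 difference -0.01, SE 0.10, adjusted p = 0.968). The third read 145, 152 and 142 against 139, 151 and 137 in wild type (log2 difference 0.03, SE 0.12, adjusted p = 0.920). The other 3 alpha probe sets list 9 symbols each, were below the filter and read at most 43.2. Among them 1 was higher in all 3 arrays labelled double knockout, at 27.5, 38.6 and 22.4 against 21.7, 13.9 and 12.4 (log2 difference 0.50, not tested). Pcdhgc4, a gamma gene of the kind that is expressed without random choice, read 45.8, 34.4 and 56.5 against 39.8, 44.2 and 39.7 (log2 difference 0.09, SE 0.18, limma adjusted p = 0.838).

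Outside the clusters the changes were in Pcdh10, on chromosome 3, and Pcdh20, on chromosome 14. The 250 bases before the start of each gene are shown because these are the called genes outside the clusters, with CG dinucleotides in capitals. They come from RefSeq, build GRCm38.p6, at chr3:45378148-45378397 on the plus strand for Pcdh10 and chr14:88471397-88471646 on the minus strand for Pcdh20.
Pcdh10: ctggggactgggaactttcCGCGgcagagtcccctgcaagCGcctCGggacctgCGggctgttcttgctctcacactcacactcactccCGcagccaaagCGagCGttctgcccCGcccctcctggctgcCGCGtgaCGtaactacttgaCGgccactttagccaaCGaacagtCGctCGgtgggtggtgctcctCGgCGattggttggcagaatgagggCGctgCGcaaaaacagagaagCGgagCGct
Pcdh20: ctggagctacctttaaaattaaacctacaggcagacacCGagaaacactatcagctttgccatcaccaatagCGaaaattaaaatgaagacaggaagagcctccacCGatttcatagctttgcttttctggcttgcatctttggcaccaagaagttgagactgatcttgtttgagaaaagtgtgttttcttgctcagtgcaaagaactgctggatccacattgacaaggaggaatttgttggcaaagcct
The Pcdh10 sequence held 22 CG dinucleotides and 63.2% G or C, and the Pcdh20 sequence held 3 and 42.4%. The median over all 32851 promoter windows was 6 CG and 52.4%. The letters GCGTGGGCG and GCGGGGGCG, which Egr proteins are known to bind, were searched on both strands of each window, which runs to 50 bases past the start. They were in 0.612% and 2.91% of all windows, and in 0 and 1 (Pcdh17) of the 10 windows of 9 protocadherin genes matched by symbol. Most of the 49 protocadherin symbols had no matched window and were not searched. The shorter strings GTGGGCG and GGGGGCG, which overlap the longer letters and were added afterwards, were in 7.97% and 16.4% of all windows and in 0 and 3 protocadherin windows (Pcdh17 and Pcdh9). Neither the Pcdh10 nor the Pcdh20 window held any of the 4 strings.

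Pcdh10 is a delta2 protocadherin that takes part in activity-dependent synapse elimination in mouse neurons and in axon growth. It had 6 tested probe sets, of which 2 rose and 4 did not pass. On the brightest it read 748, 683 and 640.3 in the arrays labelled double knockout, against 514, 432 and 408 in wild type, with no overlap. The means were 690.5 ± 54.3 and 451 ± 55.4 (SD, n = 3 each), a difference of 0.60 on the log2 scale (SE 0.12, limma adjusted p = 0.0467). On the fourth brightest it read 187, 190.0 and 199 against 135, 93.3 and 98.4 in wild type, again with no overlap (192 ± 6.42 and 109 ± 22.5, SD, n = 3 each). On the log2 scale it was 0.75 higher (SE 0.15, limma adjusted p = 0.0497), just under the threshold.

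The other Pcdh10 probe sets gave smaller differences. The second brightest read 495, 434 and 507 against 454, 557 and 344, with full overlap (log2 difference 0.10, SE 0.16, limma adjusted p = 0.793). The third read 190.0, 181 and 183 against 169, 170.1 and 159.8, with no overlap but a difference of 0.14 (SE 0.11, adjusted p = 0.580). The dimmest differed by 0.37 (adjusted p = 0.323) and the next dimmest by -0.11 (adjusted p = 0.809). By sign 5 of the 6 were higher, and the differences between probe sets of the gene were not themselves tested. The direction of both called probe sets was the same in every alternative run, but the call of the brightest held in 7 of 17 and that of the fourth in 5 of 16. When single arrays were omitted, each held without wild type replicate 1 (adjusted p = 0.0494 and 0.0426) and was lost in the other 5, with adjusted p up to 0.168 and 0.197.

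Pcdh20, a non-clustered protocadherin outside the delta1 and delta2 groups, was lower on both of its probe sets, and both were designed from the same sequence record. On the brighter it read 173, 164 and 147 in the arrays labelled double knockout, against 280.0, 240.5 and 362 in wild type, with no overlap. The means were 161 ± 13.3 and 294 ± 61.8 (SD, n = 3 each), a difference of -0.79 on the log2 scale (SE 0.15, limma adjusted p = 0.0464). On the dimmer it read 70.3, 71.9 and 48.6 against 122, 95.5 and 129, also with no overlap. That log2 difference was of like size, -0.73 (SE 0.18), and did not pass (limma adjusted p = 0.0876). The call of the brighter held in 6 of 17 alternatives and, when single arrays were omitted, without wild type replicate 2 (log2 difference -0.92, adjusted p = 0.0205). It was -0.64 without wild type replicate 3, the highest array (adjusted p = 0.0824). Over all alternatives the adjusted p ran from 0.0205 to 0.262. Pcdh20, Pcdh8 and Pcdh17 lie within 20 Mb of Egr3 on chromosome 14, a window looked at after the values were seen. Taking each gene by its brightest tested probe set, 1 of these 3 fell and 2 did not pass, and of the 181 other genes measured there 1 rose, 2 fell and 178 did not pass. An unadjusted p under 0.05 was reached by 41 of the 181 (22.7%), against 16.6% of all tested probe sets.

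**Figure D3:**
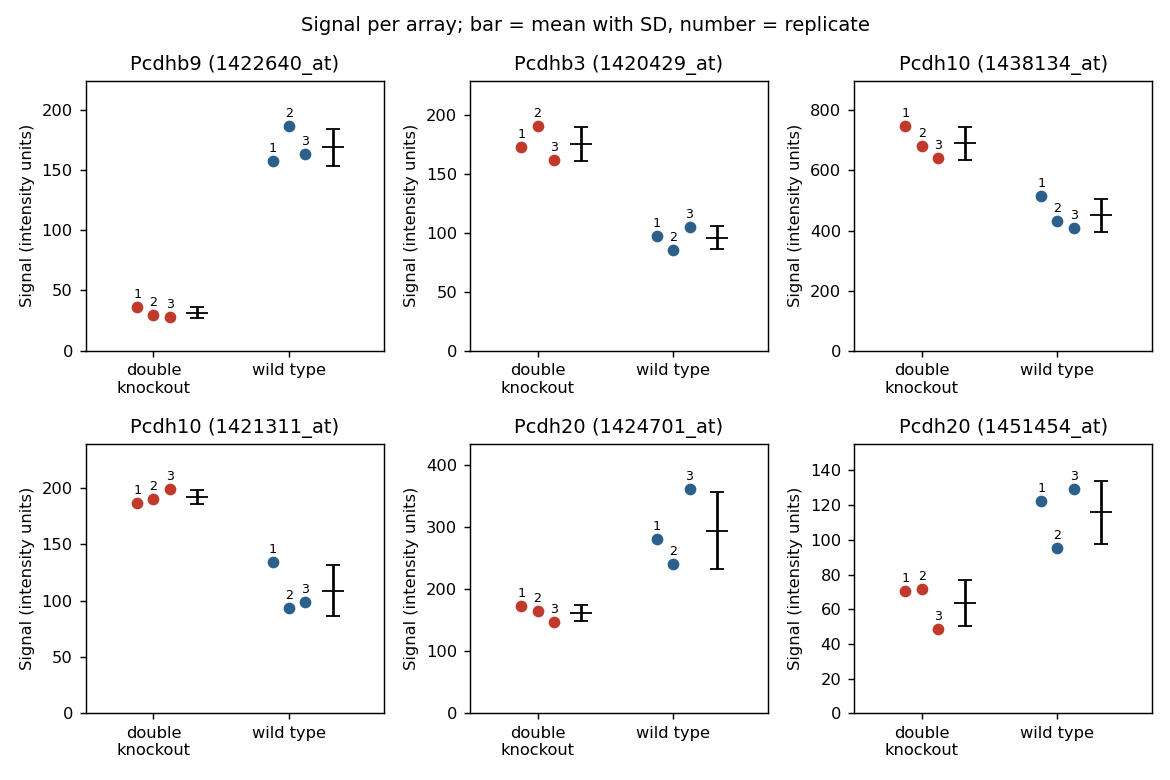
Signal (intensity units, linear axes from 0) per array for the 5 called probe sets and the other Pcdh20 probe set, with double knockout left and wild type right. Numbers mark the replicates and black bars the mean with SD (n = 3). In each panel the groups do not overlap, and Pcdhb9 spans 27.7 to 36.6 for double knockout and 157 to 186 for wild type.

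The delta1 genes gave no call in 7 tested probe sets. Pcdh9, abundant in cortical projection neurons, read 1558, 1462 and 1385 in the arrays labelled double knockout, against 1348, 1308 and 1153 in wild type, on its brightest probe set. The groups did not overlap, by a narrow gap, at 0.21 on the log2 scale (SE 0.10, limma adjusted p = 0.344). Its other probe sets differed by 0.25 (adjusted p = 0.320) and 0.19 (adjusted p = 0.511), so all 3 were higher and none passed. On the second of the 3 the signals were 1095, 1224 and 1061 against 876, 1094 and 877. Pcdh7, a receptor whose cytoplasmic domain binds a protein phosphatase, differed in sign between its tested probe sets. On the brighter it read 534, 534 and 572 against 602, 806 and 578, with no overlap (log2 difference -0.26, SE 0.13, limma adjusted p = 0.364). Without wild type replicate 2, the highest array, that value was -0.11 (adjusted p = 0.645). On the dimmer it differed by 0.25 (SE 0.17, adjusted p = 0.516). Pcdh1 was below the filter, at 17.3, 27.7 and 38.7 against 15.0, 9.999 and 19.8.

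Pcdh11x, an X-linked delta1 gene, was highest on the array with high Xist. On the dimmer of its probe sets it read 139.7, 188 and 119 in double knockout replicates 1, 2 and 3, against 109, 91.9 and 99.9 in wild type, with no overlap (log2 difference 0.48, SE 0.17, limma adjusted p = 0.197). Without double knockout replicate 2 the difference was 0.32 (adjusted p = 0.484). On the brighter it read 219, 306 and 175 against 221, 231 and 191, with overlap, and differed by 0.08 (adjusted p = 0.853). Without double knockout replicate 2 that value was -0.12 (adjusted p = 0.813).

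Among the delta2 genes besides Pcdh10 none passed, and Pcdh8, Pcdh17 and Pcdh19 shared a pattern among the wild type arrays. Pcdh8, also called arcadlin, is induced by activity and takes up N-cadherin from synapses in rat neurons. Pcdh17 acts at synapses of corticobasal ganglia circuits in mice. Pcdh19 is X-linked and is the gene of a human epilepsy that mainly affects females. On the brightest Pcdh19 probe set it read 434, 475 and 388 in the arrays labelled double knockout, against 470.2, 256 and 708 in wild type (log2 difference -0.03, SE 0.28, limma adjusted p = 0.968). Wild type replicate 2 was the lowest and wild type replicate 3 the highest of the 6 arrays. The SD of its log2 values was 0.71 in wild type, above that of 98.9% of tested probe sets, and 0.14 in the arrays labelled double knockout, above 51.4%.

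The brighter Pcdh8 probe set read 1399, 1260.0 and 1196 against 1253, 881 and 1581 in wild type (log2 difference 0.09, SE 0.18, limma adjusted p = 0.847). Its wild type SD on the log2 scale was 0.42, above 93.7% of tested probe sets. The other Pcdh8 probe set read 673, 618 and 576 against 653, 459 and 799 (log2 difference -0.00048, SE 0.17, adjusted p = 0.999). The brighter Pcdh17 probe set read 647, 584 and 606 against 640.3, 439 and 651 (log2 difference 0.10, SE 0.15, limma adjusted p = 0.772), and the other differed by 0.09 (adjusted p = 0.764). All 7 probe sets of these 3 genes had wild type replicate 2 lowest, replicate 1 between and replicate 3 highest, an order held by 4 of the 32 other tested members and by 17.4% of all tested probe sets. Those 4 were the called Pcdhb3 probe set, both Pcdh20 probe sets, of which the brighter was called, and the second brightest alpha probe set. In all 7 the arrays labelled double knockout lay inside the wild type range, as in 3 of the 32 other members and 20.2% of all tested probe sets. These genes were grouped after their values were seen, and probe sets of a gene share its RNA. Markers of meninges and fibroblasts had the same order, with sums of 790.4, 445 and 1331 in wild type replicates 1, 2 and 3. The sum of the 2 oligodendrocyte precursor markers did too, at 552, 403 and 709.8. Of these Pdgfra held the order, at 489, 337 and 625, and Cspg4 did not, at 63.0, 65.7 and 84.9. Among interneuron markers Sst, Gad2 and Slc32a1 held it, while Gad1, Pvalb and Vip did not. Choroid plexus markers were also highest in replicate 3 but lowest in replicate 1, at 152, 430 and 10911. The part of these markers in the shared order was not tested.

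Pcdh18, a delta2 gene whose protein binds the adaptor Dab1, read 44.2, 62.5 and 35.3 against 83.7, 50.6 and 68.9 on its tested probe set (log2 difference -0.41, SE 0.21, limma adjusted p = 0.367), and double knockout replicate 2 lay inside the wild type range. Pcdh15, part of the tip link of hair cells in the inner ear, read 104, 120.3 and 81.0 against 84.6, 93.5 and 87.4 on its tested probe set (log2 difference 0.16, SE 0.16, adjusted p = 0.662). Pcdh12, an endothelial protocadherin, read at most 15.6 on its 3 probe sets and was not tested. The endothelial markers Cldn5, Flt1, Pecam1, Tek and Cdh5 summed to 418 to 535 in the arrays labelled double knockout and 413 to 581 in wild type.

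**Figure D4:**
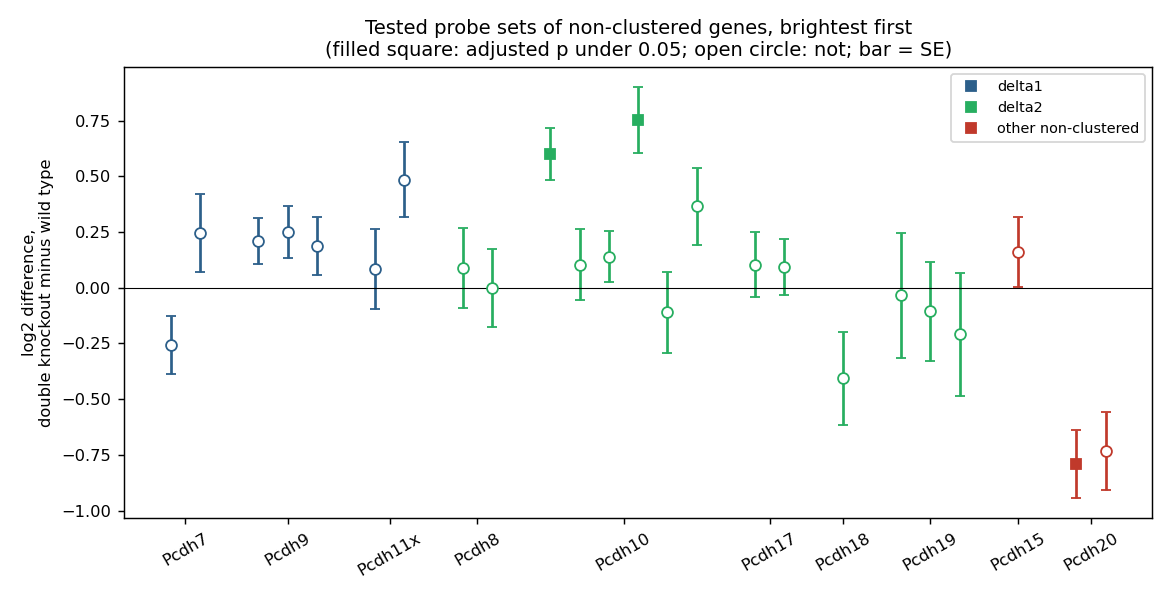
Log2 difference (double knockout minus wild type) with SE for every tested probe set of the non-clustered genes, brightest first within a gene. Filled squares passed an adjusted p of 0.05. The 6 Pcdh10 probe sets spread from -0.11 to 0.75, the Pcdh20 probe sets lie at -0.79 and -0.73, and Pcdh7 lies on both sides of 0.

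All measured clustered genes lie on chromosome 18 within 5 Mb of Egr1 in the RefSeq gene table of assembly GRCm38.p6, as do the non-clustered genes Pcdh1 and Pcdh12. Taking each gene by its brightest tested probe set, 11 protocadherin genes within 10 Mb of Egr1 were measured, of which 1 rose, 1 fell and 9 did not pass. Of the 83 other genes measured in the same window, 0 rose, 1 fell (Camk4, a calcium/calmodulin-dependent kinase, log2 difference -0.89) and 82 did not pass. An unadjusted p under 0.05 was reached by 12 of the 83 (14.5%), against 16.6% of all tested probe sets. The medians were 0.06 for the protocadherins and 0.04 for the other genes. Whether distance from the targeted gene had a part in the Pcdhb9 and Pcdhb3 differences was not tested.

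Genes of the wider cadherin and protocadherin pathway were taken from 4 lists, each gene by its brightest tested probe set. Shares of these genes are therefore set beside shares of all tested probe sets, a different unit. Of 66 such genes tested, 0 rose and 0 fell in limma with adjusted p under 0.05, where 1.02% of all tested probe sets passed, and 9 (13.6%) had an unadjusted p under 0.05, against 16.6% of all. Among 18 classical and other cadherins (median 0.10) the smallest p values were those of Cdh10, a neuronal type II cadherin, at 363, 356 and 370.4 in the arrays labelled double knockout, against 486, 491 and 452 in wild type (log2 difference -0.37, limma adjusted p = 0.107), and Cdh4, which encodes R-cadherin, at 49.6, 58.2 and 60.6 against 126, 70.3 and 145 (log2 difference -0.80, adjusted p = 0.126). Cdh4 passed without wild type replicate 2 (log2 difference -1.07, adjusted p = 0.0181). Among 6 seven-pass and giant cadherins (median 0.0062) Fat4, a giant cadherin of planar polarity, differed by 0.47 (limma adjusted p = 0.212) and Fat1 by 0.23 (adjusted p = 0.388).

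The promoters of the clusters are brought to an enhancer by CTCF and cohesin. Among 17 chromatin factors of that machinery (median 0.10) the smallest p values were those of the cohesin subunit Stag2, at 622, 577 and 604 against 534, 512 and 458 (log2 difference 0.26, limma adjusted p = 0.245), and the cohesin cofactor Pds5a (0.37, adjusted p = 0.268). Among 25 cytoplasmic partners and proteases (median -0.0018) they were those of Nckap1 (0.29, limma adjusted p = 0.261) and Wasf1 (0.20, adjusted p = 0.479), components of the WAVE complex that delta protocadherins recruit to actin.

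Leaving out arrays moved the count of 5 called protocadherin probe sets. It was 1 without double knockout replicate 1, 2 or 3, and 3, 2 and 2 without wild type replicates 1, 2 and 3. It was 1 without both the array with dim spiked controls and the array with high Xist, and 1 without both arrays with high choroid plexus markers. Pcdhb9 was the call left in every fit that made 1.

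**Figure D5:**
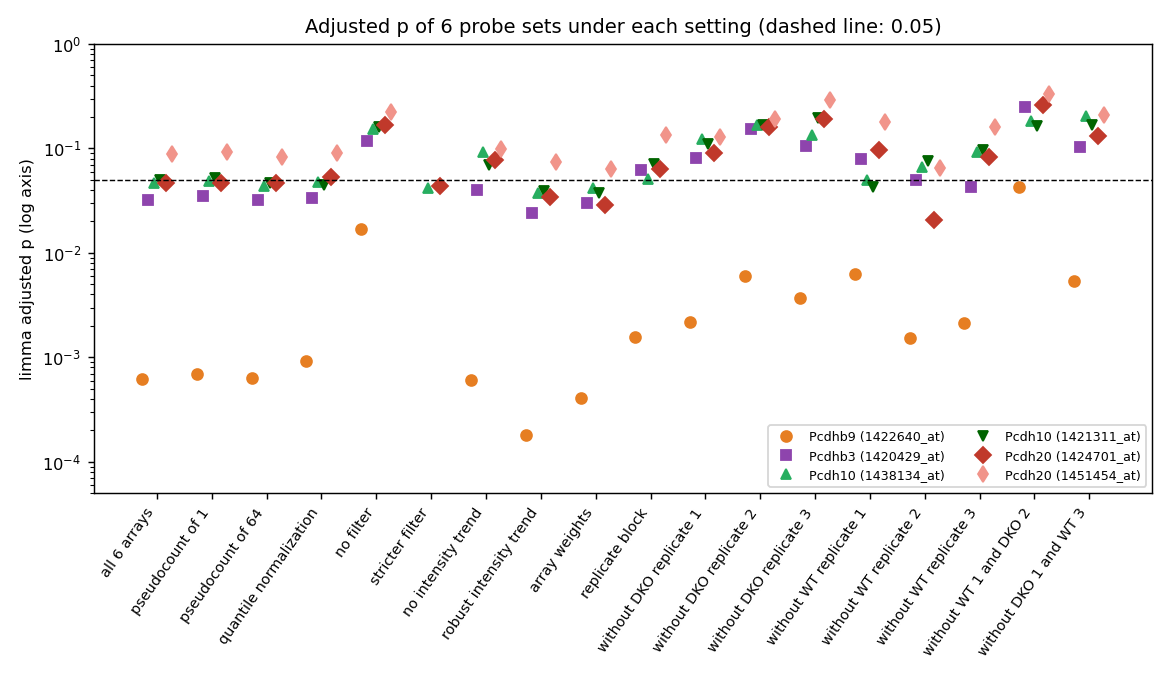
Limma adjusted p (log axis) of 6 probe sets under each setting, with the threshold of 0.05 dashed (DKO, labelled double knockout; WT, wild type). Pcdhb9 lies below the line in every setting that tested it, at most 0.0425, while the other 4 called probe sets lie above it each time in 5 of 6 single-array omissions and the dimmer Pcdh20 probe set lies above it throughout.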

How the data were processed

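The deposited table holds 1 linear intensity signal per probe set and array. The summarising software and genome build are not given in the sources used here. In the deposited values the 2% trimmed mean of every array is 150.0, so the arrays share 1 overall brightness. No column was left out, and identical values were found in 0 pairs of arrays. Groups come from the descriptions in the labels. For double knockout replicate 1 the title is worded like those of wild type.

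Signals under 1 were set to 1, and log2(signal + 16) was fitted with limma 3.58.1 in R 4.3.3 (group as the only term, intensity trend, two-sided p, Benjamini-Hochberg adjustment over 22518 probe sets above the median). Exact permutation of 3 against 3 arrays allows no p under 0.1, so it was not used. The fit was tested on simulated data. Symbols come from the platform's annotation, updated by gene number in the RefSeq table (GRCm38.p6), used for names and neighbours. Its promoter windows hold 250 bases before and 50 after each start.

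The rule named members past the threshold, those with an unadjusted p under 0.05, those listing several symbols, the 3 brightest per class and the probe sets of such genes. Others (Pcdh18 and Pcdh19 probe sets, Pcdhb5, Pcdhb6 and other beta genes, Camk4) were named after their values were seen. Pcdh8 and Pcdh17 were named by brightness, but were grouped with Pcdh19 after the values were seen. Probe sets of a gene are told apart by brightness. Members, lists and tests were chosen with earlier results of these data known. Alternatives covered pseudocounts, quantile normalization, filters, trend, array weights, each replicate left out, pairs of arrays left out, thresholds and the replicate number as a block. Same-numbered arrays did not deviate together (r = -0.147, 0.00129 and -0.101). Matplotlib 3.10.9 (Python 3.11.15) made the figures.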

Additional observations from a re-analysis of the deposited data

How the results depend on the processing

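The count of 5 called protocadherin probe sets was 1 with no filter, 2 with the stricter filter (which tests 2 of the 5, both of which passed), 2 with no intensity trend, 1 with the replicate block and 1 at an adjusted p under 0.01. It ranged from 1 to 3 with each array left out, and was 1 without both the array with dim spiked controls and the array with high Xist, and 1 without both arrays with high choroid plexus genes. The counts of the named called probe sets were the same. The count of 229 over all probe sets was 10 with no filter, 131 with no intensity trend, 42 and 586 at adjusted p under 0.01 and 0.1, 34 to 292 with an array left out, and 12 and 78 without these pairs. The pathway count of 0 was 0 to 1 with an array left out. The 3 called neighbours of Egr1 became 1 with no filter, 1 with the stricter filter, 1 to 3 with an array left out, 1 and 1 without the pairs and 5 at an adjusted p under 0.1. Fewer arrays and another number of tested probe sets are part of these settings by construction. Otherwise the cause was not tested.

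No called probe set changed direction. Signs turned only among members that did not pass. With a pseudocount of 1, the dimmer Pcdh8 probe set was 0.00035, and with quantile normalization it was 0.0079 and the second brightest alpha probe set 0.00065. Without both the array with dim spiked controls and the array with high Xist, the dimmer Pcdh8 probe set was 0.038, the brighter Pcdh11x probe set -0.095, the fifth brightest Pcdh10 probe set 0.065, Pcdhb15 0.068 and the third alpha probe set -0.0032. Without both arrays with high choroid plexus genes, the dimmer Pcdh8 probe set was 0.12, the second brightest alpha probe set 0.066, the second brightest Pcdh10 probe set -0.098 and Pcdh19 0.29, 0.12 and 0.058, brightest probe set first. With each array left out, log2 differences ran from -0.21 to 0.18 and -0.13 to 0.28 for the dimmer and the brighter Pcdh8 probe sets, -0.24 to 0.0079 and -0.074 to 0.055 for the brightest and second brightest alpha probe sets, -0.072 to 0.26 and -0.28 to 0.0059 for the second and the fifth brightest Pcdh10 probe sets, -0.12 to 0.26 for the brighter Pcdh11x probe set, -0.010 to 0.18 and -0.076 to 0.20 for the dimmer and the brighter Pcdh17 probe sets, -0.41 to 0.30, -0.35 to 0.17 and -0.56 to 0.059 for Pcdh19, brightest first, -0.035 to 0.23 for Pcdhgc4, -0.21 to 0.038 for Pcdhb15 and -0.16 to 0.0086 for Pcdhb7. The labels do not state whether the replicate numbers pair the arrays. Dim signal, at most 43.3 on any array and often far under the array median, limits the 29 members below the filter.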
